A study of Mus musculus with 12 samples.

Results

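The genes for the distal breakdown of the branched-chain amino acids were examined in the hearts of mice that lack SDHAF4, an assembly factor of mitochondrial complex II (succinate dehydrogenase). They are 9 genes chosen by their function in the pathway, with earlier results of these data known. These are Ivd, Mccc1, Mccc2 and Auh in the leucine branch, Acad8, Hibch, Hibadh and Aldh6a1 in the valine branch, and Acadsb in the isoleucine branch. Each was found by its symbol in 1 row of a table of 43686 rows, so they are 9 rows of 43686.

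Leucine, valine and isoleucine are transaminated and then decarboxylated by the branched-chain ketoacid dehydrogenase complex, after which each branch runs through enzymes of its own in the mitochondrial matrix. A branch-specific acyl-CoA dehydrogenase takes the first distal step and passes its electrons to electron transfer flavoprotein, which feeds the ubiquinone pool. The branches end in acetyl-CoA, acetoacetate and, by way of propionyl-CoA, succinyl-CoA, the precursor of the substrate of complex II. The heart is known to use these amino acids as a minor fuel, and their breakdown genes are known to be low in failing hearts.

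RNA of the ventricular wall was sequenced in 6 control mice (WT) and 6 mutant mice (KO), named as wild type and Sdhaf4-/- of strain C57BL/6 at postnatal month 2 in the sample labels, although the paper's main text gives a younger age and its reporting summary lists more than 1 age for such work. According to the paper's methods both groups carry floxed Sdhaf4 alleles (Sdhaf4 fl/fl), and the KO mice carry Ckmm-Cre in addition, which is driven by the muscle creatine kinase promoter and deletes the gene in cardiac and skeletal muscle. The WT littermates carry no Cre, so the transgene and the deletion cannot be told apart, and the other cells of the KO heart keep Sdhaf4. Nothing states that a library pools animals, and each was taken as 1 heart.

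Between 23747014 and 27159228 reads were counted per WT library and between 26542930 and 31393393 per KO library, and the lowest count of any of the 9 genes in any library was 943 (Mccc2). Levels are given as CPM, read counts relative to the library total after edgeR's TMM scaling, and genotypes were compared over 17155 rows with the quasi-likelihood test of edgeR, whose p-values were adjusted by the Benjamini-Hochberg method. The targeted gene was at 25.2 ± 5.80 CPM in WT and 2.40 ± 0.170 CPM in KO (SD, n = 6 in each group), with no overlap between the groups. The labelled tissue carried its defining transcripts: the summed level of 9 cardiomyocyte markers was 37000 to 39520 CPM in WT and 31840 to 43880 CPM in KO, with 4 of the 9 lower, 2 higher and 3 not called. The 8 fibroblast markers were all higher in KO, and their sum went from 1420–1670 CPM in WT to 2584–4867 CPM in KO. These libraries are bulk tissue, in which fewer cells of a type and less RNA per cell cannot be told apart, and the part of the marker shifts in the results below was not tested.

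One library stood apart in these genes. KO replicate 3 had the highest level among the KO hearts for 9 of the 9 genes, whereas it was the highest KO library in 22.7% of all rows tested and in 39.4% of the rows lower in KO. Its Sdhaf4 level, 2.25 CPM, was the lowest of the KO hearts. Results are therefore given with and without it.

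All 9 genes passed the filter on low counts, and all 9 were lower in KO at an adjusted p under 0.05, against 25.5% of all rows tested that were lower at that threshold. None of the 9 was higher with edgeR, DESeq2 or limma-voom, nor with edgeR at an unadjusted p under 0.05 (0 of 9), while 25.6% of all rows were higher. Their median log2 fold change was -0.64, with a range of -1.66 to -0.24, beside a median of 0.00 over all rows. Ivd and Aldh6a1 also passed both thresholds of the study's methods (adjusted p under 0.005 and a log2 fold change below -1), which 4.87% of all rows did in that direction and 5.36% in the other. For 8 of the 9 genes every KO heart was below every WT heart, which held for 15.2% of all rows. Without KO replicate 3 the counts were again 9 lower and 2 past both thresholds.

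**Figure D1:**
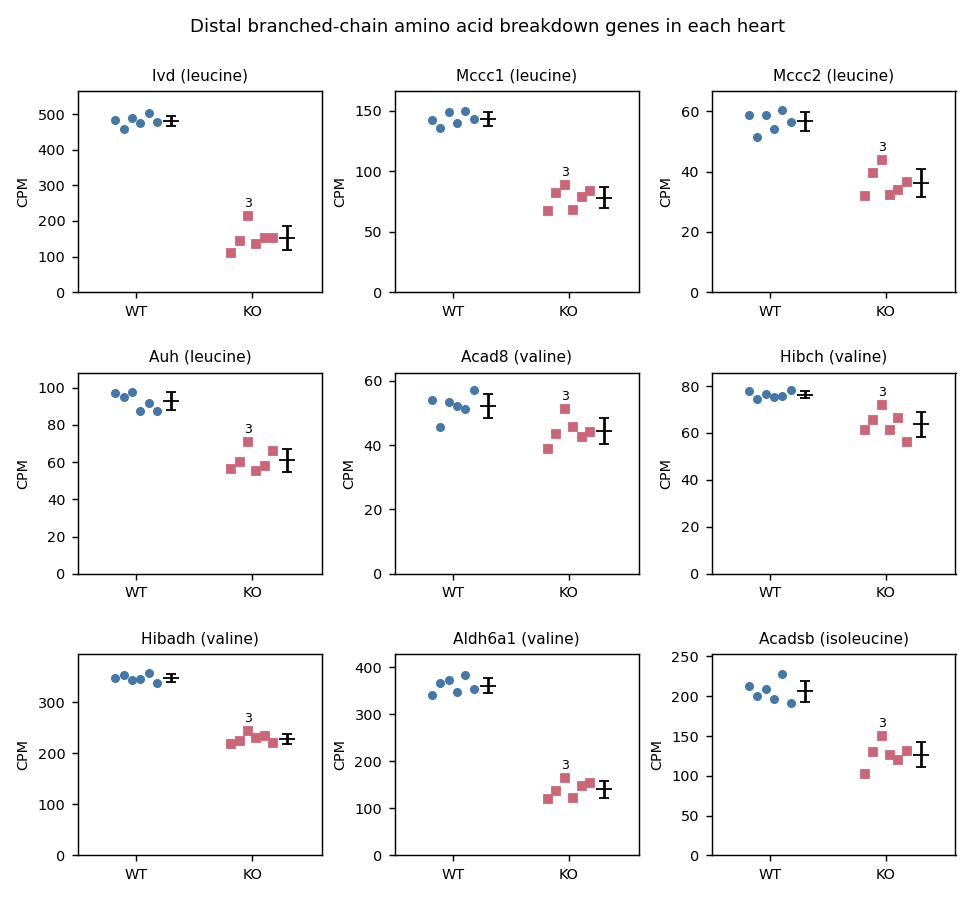
Level of each of the 9 genes in CPM (vertical axes, from 0) in the 6 WT hearts (circles) and the 6 KO hearts (squares), with the mean and SD of each group beside the points and KO replicate 3 marked by its number. The KO hearts lie below the WT hearts in every panel except that of Acad8, where KO replicate 3 lies among the WT hearts at 51.1 CPM.

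In the leucine branch the 4 genes had a median log2 fold change of -0.76. Ivd encodes isovaleryl-CoA dehydrogenase, which oxidises the isovaleryl-CoA made from leucine and whose inherited deficiency causes isovaleric acidemia. Its lowest, median and highest levels were 459, 481 and 504 CPM in WT and 111, 148 and 214 CPM in KO. The WT hearts were tightly grouped and no KO heart came near them, but KO replicate 3 stood well above the other 5 KO hearts, which reached 153 CPM. The mean was 481 ± 14.8 CPM in WT and 152 ± 34.05 CPM in KO (SD, n = 6 each), 31.6% of WT, a log2 fold change of -1.66 with a standard error of 0.12 (edgeR, adjusted p = 2.86e-08). Without KO replicate 3 it was -1.79. Ivd (MGP_C57BL6NJ_G0026746) lies on chromosome 2, 125577944 to 125599768, plus strand, of the C57BL/6NJ assembly, the one that the table's identifiers and coordinates belong to, and no other row overlaps it.

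Mccc1 and Mccc2 encode the biotin-bearing alpha subunit and the beta subunit of methylcrotonyl-CoA carboxylase, which takes the step after Ivd. Mccc1 was at 136, 143 and 150 CPM (lowest, median, highest) in WT and at 66.9, 80.5 and 88.7 CPM in KO. The mean in KO was 54.5% of WT, and the log2 fold change was -0.88 (standard error 0.07, edgeR adjusted p = 1.46e-08). Mccc2 was at 51.7, 57.5 and 60.4 CPM in WT and at 31.96, 35.2 and 43.9 CPM in KO. The groups did not overlap for either subunit, and the KO mean of Mccc2 was 64.2% of WT, a log2 fold change of -0.64 (standard error 0.07, edgeR adjusted p = 1.90e-06). The span of Mccc1 (chromosome 3, 35351719 to 35393502, minus strand) overlaps 4 rows without a gene name, each with a mean of 33.2 to 66.8 counts in WT. Mccc2 (chromosome 13, 104774314 to 104865837, minus strand) overlaps none.

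Auh encodes methylglutaconyl-CoA hydratase, the enzyme of the next leucine step, which also binds AU-rich RNA. It was at 87.4, 93.4 and 97.9 CPM in WT and at 55.0, 59.0 and 70.8 CPM in KO. Every KO heart was below every WT heart, and KO replicate 3 was again the highest of them. The log2 fold change was -0.61 (standard error 0.06, edgeR adjusted p = 4.76e-07), which left 65.7% of the WT mean. Auh lies on chromosome 13, 53748319 to 53850016, minus strand.

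In the valine branch the 4 genes spanned the widest range, with a median log2 fold change of -0.43. Acad8 encodes isobutyryl-CoA dehydrogenase, the valine counterpart of Ivd. Its levels were 45.6, 52.8 and 56.98 CPM in WT and 38.8, 43.8 and 51.1 CPM in KO. Acad8 was the gene whose groups overlapped: KO replicate 3 lay above the lowest WT heart, and the highest of the other KO hearts met it at 45.6 CPM. The KO mean was 84.9% of WT (log2 fold change -0.24, standard error 0.07, edgeR adjusted p = 0.00601), and without KO replicate 3 the log2 fold change was -0.29. Acad8 lies on chromosome 9, 25339903 to 25364182, minus strand.

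Hibch encodes 3-hydroxyisobutyryl-CoA hydrolase, which frees the acid from coenzyme A and so lets an intermediate of this branch leave the mitochondrion. Its levels were 74.4, 76.2 and 78.3 CPM in WT and 56.3, 63.3 and 71.9 CPM in KO. The groups did not overlap, although KO replicate 3 came close to the lowest WT heart. The log2 fold change was -0.26 (standard error 0.05, edgeR adjusted p = 0.000564) and the KO mean 83.4% of WT. Hibch lies on chromosome 1, 54570453 to 54652935, plus strand, and the 1 row that overlaps it had no counts.

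Hibadh encodes 3-hydroxyisobutyrate dehydrogenase, which acts on the product of Hibch. It was at 338, 346 and 358 CPM in WT and at 218, 227 and 244 CPM in KO. Its KO hearts varied the least among the 9 genes, with a coefficient of variation of 4.32%. The log2 fold change was -0.60 (standard error 0.04, edgeR adjusted p = 8.94e-09). Hibadh lies on chromosome 6, 52961234 to 53063069, minus strand, and the 3 rows that overlap it had means of at most 7.33 counts.

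Aldh6a1 encodes methylmalonate semialdehyde dehydrogenase, which closes the valine branch and yields propionyl-CoA. Its levels were 342, 360 and 383 CPM in WT and 120, 142 and 165 CPM in KO. The KO hearts were far below the WT hearts, KO replicate 3 included. The mean was 361 ± 15.7 CPM in WT and 141 ± 17.8 CPM in KO (SD, n = 6 each), 39.0% of WT, a log2 fold change of -1.36 with a standard error of 0.07 (edgeR, adjusted p = 3.41e-10). Aldh6a1 (chromosome 12, 87592186 to 87612411, minus strand) shares 3058 bases with Bbof1 on the other strand. Bbof1 had means of 172 counts in WT and 121 in KO, against at least 3553 counts of Aldh6a1 in every library, and whether reads were counted by strand is not given in the sources used here.

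In the isoleucine branch Acadsb encodes short/branched chain acyl-CoA dehydrogenase, which oxidises 2-methylbutyryl-CoA. It was at 192, 204 and 228 CPM in WT and at 103, 128 and 151 CPM in KO. No KO heart reached a WT heart. The KO mean was 61.3% of WT (log2 fold change -0.71, standard error 0.07, edgeR adjusted p = 5.51e-07), and Acadsb lies on chromosome 7, 141231130 to 141269354, plus strand.

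**Figure D2:**
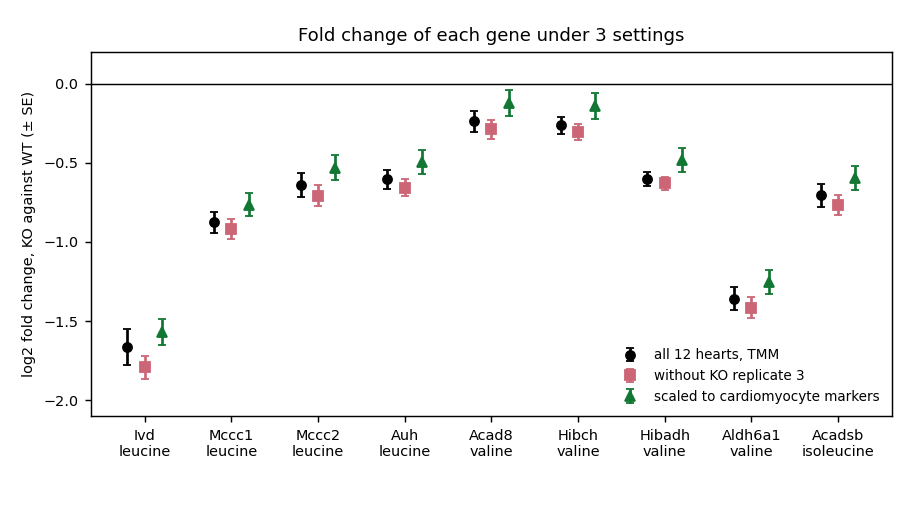
Log2 fold change of KO against WT with its standard error (vertical axis) for the 9 genes by branch, from all 12 hearts, without KO replicate 3, and with each library scaled to the cardiomyocyte markers. All points lie below 0, and Acad8 and Hibch lie nearest to it, at -0.12 and -0.14 under the cardiomyocyte scaling.

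The calls of Acad8 and Hibch depended on the scaling between libraries. With each library scaled to the 9 cardiomyocyte markers, their log2 fold changes were -0.12 (edgeR adjusted p = 0.227) and -0.14 (edgeR adjusted p = 0.163). In that setting 7 of the 9 genes were lower. Of all 17155 rows tested, 2597 were then lower and 5004 higher, against 4376 and 4391 under TMM. That scaling moved the median of all rows from 0.00 to 0.13, and relative to this median Acad8 was at -0.25 and Hibch at -0.27. Subtracting the median largely undoes the scaling, so these values lie close to those under TMM (-0.24 and -0.26) by construction.

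The 9 genes thus fell to unequal extents, and 7 ratios between genes of the same heart, which do not depend on the scaling between libraries, measured this. For each the difference between KO and WT gave an exact two-sided permutation p of 0.00216, the smallest that 6 against 6 hearts can give, and it was also 0.00216 after Benjamini-Hochberg adjustment over the 7. The 7 pairs were chosen with earlier results of these data known, so these p-values are no independent test. How often other pairs of rows separate in this way is not given here. The 3 branch-specific acyl-CoA dehydrogenases separated from each other. On the CPM scale, which does not correct for gene length, the geometric mean ratio of Ivd to Acad8 was 9.16 in WT and 3.35 in KO, a log2 difference of -1.45. The ratio of Ivd to Acadsb went from 2.33 to 1.18 (log2 difference -0.98). That of Acad8 to Acadsb went the other way, from 0.26 to 0.35 (log2 difference 0.47). Acad8 therefore lost the least of the 3 and Ivd the most.

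Within the leucine branch the ratio of Ivd to Auh went from 5.17 to 2.44 (log2 difference -1.08). The subunits of methylcrotonyl-CoA carboxylase also moved apart: the ratio of Mccc1 to Mccc2 was 2.52 in WT and 2.13 in KO, a log2 difference of -0.24. Its range was 1.27 to 1.38 on the log2 scale in WT and 1.01 to 1.20 in KO. Along the valine branch, Hibch was 0.22 of Hibadh in WT and 0.28 in KO (log2 difference 0.34). Hibadh to Aldh6a1 went from 0.96 to 1.63 (log2 difference 0.76). The enzyme that closes the valine branch thus lost more transcript than the enzyme before it, and that one more than Hibch. In none of the 7 ratios did the groups overlap. With any 1 heart left out the adjusted p of the exact permutation test was at or below 0.00433. This follows from the lack of overlap and adds no further support.

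**Figure D3:**
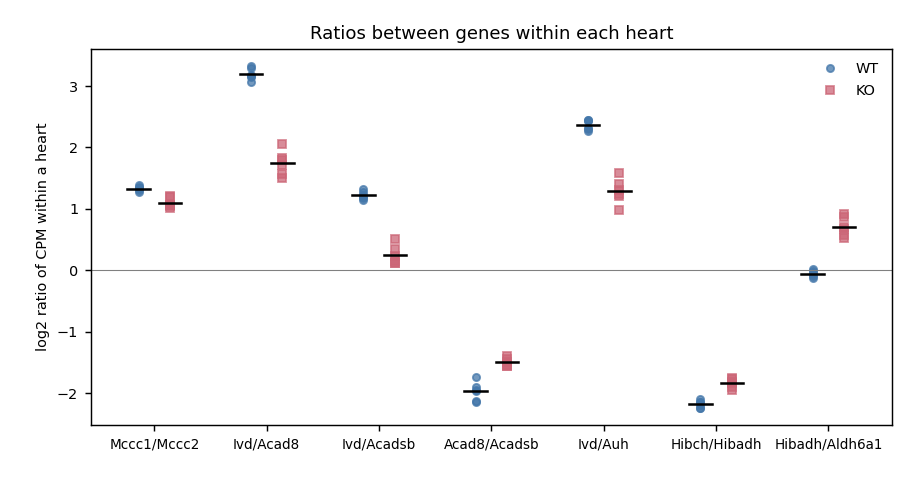
Log2 ratio of CPM between pairs of genes within each heart (vertical axis) for 7 pairs, with WT hearts as circles, KO hearts as squares and group means as bars. The groups are apart in every pair, most of all for Ivd/Acad8, which averages 3.20 in WT and 1.74 in KO.

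Because the lower level in KO was shared, the promoters of the genes were read for short motifs known from mitochondrial and housekeeping promoters. RefSeq windows (GRCm38.p6, another assembly than that of the table) from 250 bases before to 50 bases after each annotated start were available for all 9 genes, 10 windows in all, since Aldh6a1 has 2. Those of Ivd and Aldh6a1, the largest falls, and of Acad8 and Hibch, the smallest, are shown 5′ to 3′ on the gene's strand, with matches to the CCAAT box (CCAAT on either strand, so ATTGG on the other) in capitals.
Ivd promoter (chr2:118861744-118862043, plus strand): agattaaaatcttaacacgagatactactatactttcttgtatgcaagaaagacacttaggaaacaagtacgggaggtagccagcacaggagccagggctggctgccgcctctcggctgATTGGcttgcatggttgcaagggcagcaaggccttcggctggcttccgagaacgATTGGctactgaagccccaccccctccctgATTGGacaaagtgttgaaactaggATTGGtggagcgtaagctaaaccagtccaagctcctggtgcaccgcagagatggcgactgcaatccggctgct
Aldh6a1 promoter (chr12:84450975-84451274, minus strand): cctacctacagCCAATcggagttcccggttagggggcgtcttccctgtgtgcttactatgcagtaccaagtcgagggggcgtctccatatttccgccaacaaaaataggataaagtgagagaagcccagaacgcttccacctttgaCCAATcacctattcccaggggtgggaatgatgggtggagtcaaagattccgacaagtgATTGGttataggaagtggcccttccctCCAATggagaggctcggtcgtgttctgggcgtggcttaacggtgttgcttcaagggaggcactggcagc
Acad8 promoter (chr9:26999500-26999799, minus strand): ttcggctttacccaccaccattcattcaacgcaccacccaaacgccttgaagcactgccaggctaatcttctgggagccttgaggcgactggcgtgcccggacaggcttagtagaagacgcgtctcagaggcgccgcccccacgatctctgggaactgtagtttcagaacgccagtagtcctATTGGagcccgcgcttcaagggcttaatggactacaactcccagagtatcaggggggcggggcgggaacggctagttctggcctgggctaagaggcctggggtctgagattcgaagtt
Hibch promoter (chr1:52844788-52845087, plus strand): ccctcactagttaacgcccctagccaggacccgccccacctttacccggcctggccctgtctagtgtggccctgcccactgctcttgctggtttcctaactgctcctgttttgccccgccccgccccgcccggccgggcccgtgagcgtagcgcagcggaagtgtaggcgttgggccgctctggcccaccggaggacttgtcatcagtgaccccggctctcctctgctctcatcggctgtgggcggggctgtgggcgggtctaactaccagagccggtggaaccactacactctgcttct
The CCAAT box matched 4 times in the window of Ivd, 4 times in that of Aldh6a1, 1 time in that of Acad8 and in none of the letters of the Hibch window. Mccc1 and Mccc2 held 3 matches each and Hibadh 1, whereas the windows of Auh and Acadsb held none. The motif was thus present for 6 of the 9 genes, in 7 of their 10 windows, the Aldh6a1 window not shown included. It was present in 37.4% of 32851 promoter windows of the same length.

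The other motifs were also searched on both strands. The GC box (GGGCGG) matched in 6 of the 10 windows, of 6 genes with Hibch among them, and in 35.7% of all windows. The CACCC box (CCACCC), which factors of the KLF family bind, matched in 4 of the 10 windows (Ivd, Mccc1, Acad8 and Aldh6a1) and in 31.5% of all windows. The E-box CACGTG matched in 1 of the 10 windows, that of Mccc2, and in 7.15% of all windows. The half-site of the estrogen-related receptors (AAGGTCA) and the core of the NRF1 site (CATGCGC) had no match in the 10 windows, against 4.72% and 3.91% of all windows, which says only that these letters are not in these windows. The share of G and C was 53.0% for Ivd, 53.7% for the Aldh6a1 window shown, 58.3% for Acad8 and 66.3% for Hibch, all above the median of 52.7% over all windows. Of the windows not shown, that of Mccc1 (50.7%) and the other of Aldh6a1 (42.3%) lay below this median and the rest above it. These matches are descriptions of sequence and were not tested against the fold changes.

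The spread among hearts was larger in KO than in WT for 9 of the 9 genes, which held for 58.5% of all rows tested and 68.1% of the rows lower in KO. The median coefficient of variation of the 9 genes was 4.34% in WT and 11.3% in KO. Without KO replicate 3 it was 9.03% in KO, and 8 of the 9 genes still varied more there, as did 52.4% of all rows tested and 60.6% of the rows lower in KO. For Ivd it was 3.07% in WT and 22.4% in KO, or 12.4% without KO replicate 3. KO replicate 1 was the lowest KO heart for 7 of the 9, which it was for 16.1% of all rows tested and for 21.3% of the rows lower in KO.

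Expressed as a percent of the WT mean, the median over the 9 genes was 56.4% in KO replicate 1 and 73.0% in KO replicate 3, with the other KO hearts between 59.3% and 64.4%. The 6 WT hearts lay between 97.2% and 105% on the same measure. The summed level of the 9 genes was 1773 to 1900 CPM in WT and 807 to 1100 CPM in KO. Ivd made up 25.8% to 26.8% of this sum in the WT hearts and 13.8% to 19.4% in the KO hearts, again without overlap.

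**Figure D4:**
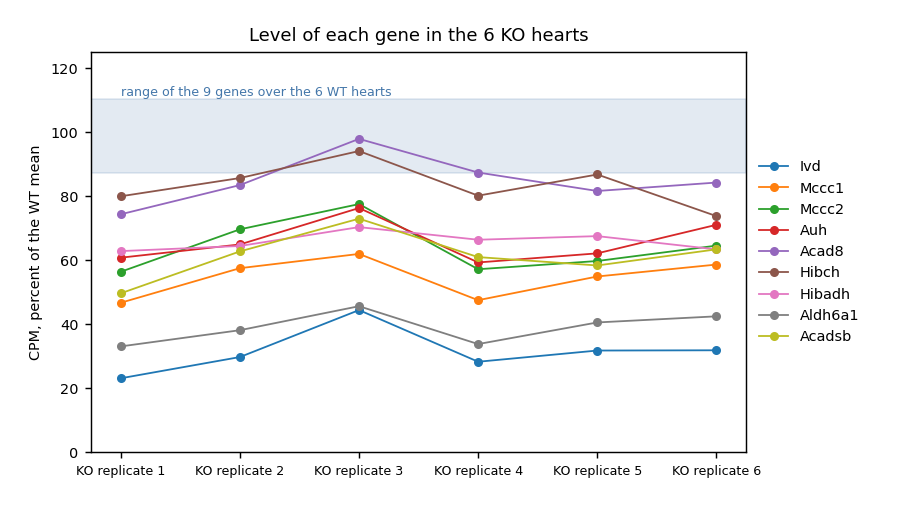
Level of each of the 9 genes in the 6 KO hearts as a percent of its WT mean (vertical axis), with lines joining the points of 1 gene and a band for the range of the 9 genes over the 6 WT hearts. KO replicate 3 is the highest KO heart for every gene, and its levels run from 44.4% for Ivd to 97.9% for Acad8.

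Levels between genes were compared per length, from the FPKM that the authors deposited (fragments relative to both the length of a gene and the size of a library). In WT the order was Ivd (452 ± 10.2 FPKM), Hibadh (151 ± 3.32), Acadsb (138 ± 6.92), Aldh6a1 (108 ± 4.45), Auh (76.0 ± 3.78), Mccc1 (66.8 ± 2.04), Hibch (65.9 ± 2.04), Acad8 (30.8 ± 2.37) and Mccc2 (26.7 ± 1.31), each as mean and SD of 6 hearts. The ranges of 3 neighbouring pairs overlapped: Hibadh and Acadsb, Mccc1 and Hibch, and Acad8 and Mccc2. In KO Ivd was still the highest, at 142 ± 28.5 FPKM, and Mccc2 the lowest, at 17.1 ± 1.82 FPKM. Hibch, with 55.0 FPKM, and Auh, with 49.9 FPKM, then stood above Aldh6a1, with 42.0 FPKM. The ranges of Hibch and Auh and of Auh and Aldh6a1 overlapped. Those of Hibch (from 47.46 FPKM) and Aldh6a1 (up to 47.47 FPKM) just met.

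This order rests on the gene length behind the FPKM. For Ivd the deposited values correspond to 1063 bases where the table lists 3665, whereas for Aldh6a1 and Mccc2 both are the same. With the table's lengths Ivd was at 131 and Aldh6a1 at 108 reads on the same scale in WT, and in KO they were at 41.3 and 42.0 with overlapping ranges. On those lengths Aldh6a1 stood above Auh (18.8) and Hibch (16.99) in KO without overlap, and Mccc1 (11.5), not Mccc2, was the lowest. The fold change of a gene does not depend on its length.

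The members of the pathway around these genes are described by counts and medians. Of 9 genes of the proximal steps, 7 were lower and 1 higher, with a median log2 fold change of -0.60. Over all rows tested, 25.5% were lower and 25.6% higher at the same threshold. The largest falls there were those of Ppm1k, the phosphatase that activates the ketoacid dehydrogenase (-1.69), and of its subunits Dbt (-1.54) and Bckdhb (-1.50). Bcat2, the mitochondrial transaminase, had a log2 fold change of -0.65, close to the median of the 9 distal genes. Bckdk, the inhibitory kinase, had -0.15 (edgeR adjusted p = 0.0384), a call that was lost under 10 of 28 alternatives. Dld, the E3 component of the complex, had -0.27 and lost its call with libraries scaled to the cardiomyocyte markers. In that setting 5 of the 9 were lower, beside 2597 of all 17155 rows tested. Bcat1, the cytosolic transaminase, was higher by a log2 fold change of 1.80 from a low level, 1.17 ± 0.692 CPM in WT against 4.09 ± 2.29 CPM in KO (SD, n = 6 each), with overlapping groups. Slc25a44, a carrier that brings these amino acids into mitochondria, was at 0.03 and not called.

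Enzymes that other pathways also use act between and after the 9 genes. Echs1, the enoyl-CoA hydratase of the valine and isoleucine branches, had a log2 fold change of -0.86, and Hsd17b10, the dehydrogenase of the isoleucine branch, -0.87. Acat1, the thiolase that ends the isoleucine branch, had -0.52.

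Propionyl-CoA from Aldh6a1 and from the isoleucine branch goes on to succinyl-CoA through 6 listed genes. Of these, 6 of 6 were lower, against 25.5% of all rows tested, with a median log2 fold change of -0.81. Mut, methylmalonyl-CoA mutase, had -1.07, Mcee, the epimerase, -1.03, and the carboxylase subunits Pcca and Pccb had -0.82 and -0.43. The 3 genes that take up the electrons of Ivd, Acad8 and Acadsb were lower as well: Etfb (-1.34), Etfa (-1.01) and Etfdh (-0.71). Of 7 other acyl-CoA dehydrogenases 5 were lower and 1 higher, against 25.5% and 25.6% of all rows tested, with a median of -0.58. Gcdh, the glutaryl-CoA dehydrogenase of lysine and tryptophan breakdown, had -1.42, between Ivd (-1.66) and Acadsb (-0.71). Acad9, which serves complex I assembly, was higher at 0.16, and Acadl, the long-chain enzyme, was not called (-0.13), but without KO replicate 3 it was lower, at -0.19 (edgeR adjusted p = 0.0145), which made 6 of the 7 lower. Spans that overlap other rows are common here, and for 8 genes of the neighbouring lists, Dbt, Pcca and Bckdha among them, an overlapping row held over 10% as many counts as the gene, so their values are uncertain.

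**Figure D5:**
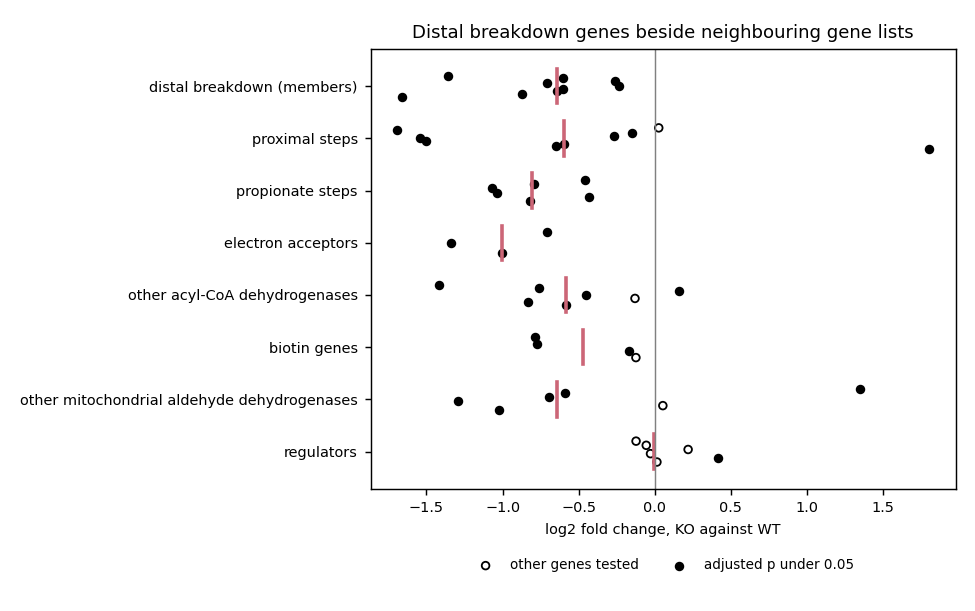
Log2 fold change of KO against WT (horizontal axis) for the 9 distal genes and for 7 lists of neighbouring genes, with 1 point for each gene tested, filled where the edgeR adjusted p is under 0.05, and a bar at the median of each list. The medians of the 9 distal genes (-0.64) and of the enzyme lists lie below 0, and that of the regulators lies at -0.01.

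Of 6 tested transcripts of factors linked to this pathway, 1 was called, against 51.1% of all rows tested in either direction. Klf15, a factor known to drive branched-chain amino acid breakdown in the heart, was at 65.0 ± 9.05 CPM in WT and 65.7 ± 8.11 CPM in KO (SD, n = 6 in each group), with a log2 fold change of 0.01 (edgeR adjusted p = 0.916). Ppara, the fatty acid sensing receptor, was higher (log2 fold change 0.42, edgeR adjusted p = 0.000884). Ppargc1a had a log2 fold change of -0.03 (edgeR adjusted p = 0.891). The paper reports its product PGC-1α and other regulators of mitochondrial biogenesis as reduced in the mutants, from immunoblots, which measure protein, and qPCR. No fall of the Ppargc1a transcript was called in these libraries. None of the 6 was lower with edgeR, DESeq2 or limma-voom, and 0 were lower with edgeR at an unadjusted p under 0.05. Without KO replicate 3, Esrrg was lower, at -0.16 (edgeR adjusted p = 0.0252).

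The rows whose profile over the 12 hearts was most like the mean of the 9 genes were sought among 10241 annotated rows with a mean of at least 5 CPM, by the root mean square difference of centred log2 CPM. They were Pln (phospholamban, 0.0545), Fh1 (fumarate hydratase, 0.0552), Echs1 (0.0599), Clpx (a subunit of a mitochondrial protease, 0.0621) and Ppp2r3a (a regulatory subunit of protein phosphatase 2A, 0.0661). Of the 9 genes themselves Acadsb (0.0688) and Mccc1 (0.07) were the nearest to their mean and Ivd (0.468) the farthest. Pln is also one of the cardiomyocyte markers, with a log2 fold change of -0.79.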

How the data were processed

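Ventricular RNA of 6 WT and 6 KO hearts was analysed, and groups and replicate numbers were taken from the sample labels. The authors purified mRNA on poly-T beads and deposited raw counts per gene made with HTSeq; the submitters' processing notes name HISAT2 2.0.5 and mm10, whereas the identifiers and coordinates are of the C57BL/6NJ assembly. The authors also deposited FPKM per library, computed from the counts and a gene length, which was used here for levels between genes. Their DESeq fold changes, p-values and group means were not used. Of 43686 rows, 27883 had counts and 2590 are unannotated loci.

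The count model was edgeR 4.0.16 in R 4.3.3 (TMM, filterByExpr, quasi-likelihood test with robust dispersions, Benjamini-Hochberg adjustment), and the F statistic and the fold change gave each standard error. Log2 ratios within a heart used CPM with 0.5 added and exact permutation tests. Depth was 23747014 to 31393393 counts per library, so counting error is small for the 9 genes. The fit was tested on simulated counts. Nothing in the labels says that the numbers pair the hearts. P-values set the difference between the genotypes against the spread between the hearts sequenced.

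The 9 genes, the neighbouring lists (written from general knowledge), the ratios and the motifs were chosen with earlier results of these data known. The genes named are the 9 genes, Sdhaf4, list genes by role and the 5 rows most like the mean profile. A result for 1 gene of the neighbouring lists is not reported here, so no count is given for that list. A few listed genes had no row under the symbols used and were not analysed here. The marker lists also held B cell, T cell, smooth muscle, macrophage, endothelial, adipocyte, atrial and skeletal muscle genes. Their summed levels in WT and KO were 1.34–4.26 and 1.26–2.49 CPM (B cell), 0.535–1.67 and 0.497–2.99 (T cell), 169–335 and 163–259 (smooth muscle), 200.2–279.8 and 200.7–319.3 (macrophage), 1399–1553 and 1485–1796 (endothelial), 1.49–3.07 and 3.03–4.50 (atrial) and 1.25–9.35 and 0.795–4.06 (skeletal muscle), and at most 0.688 for adipocyte genes. Alternatives were other normalizations (DESeq2 size factors, upper quartile, library size, cardiomyocyte markers), filters, tests (DESeq2 1.42.0, limma-voom and limma 3.58.1 on log2(FPKM + 1) and log2(FPKM + 0.1)), removal of a length trend, a replicate block and each library left out in turn. Leaving out KO replicate 3 with WT replicate 6, leaving out unannotated loci and using the table's lengths were chosen after seeing the data.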

Additional observations from a re-analysis of the deposited data

Results flagged for a closer look

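Among 130 groups of 6 hearts (the 9 genes, their 7 ratios, Sdhaf4, the neighbouring lists and the rows most like the mean profile, in each genotype), 10 held a heart whose gap to the others was above Dixon's 95% critical value for 6 values. Chance flags about 1 in 20 groups. None of the 9 distal genes was among them.

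In 7 of the 10 the heart was KO replicate 3, at the high end. These were Acat1 (831 CPM, other KO hearts 460–579 CPM), Pcca (70.6, others 45.1–50.8), Mmab (33.8, others 22.0–25.7), Etfa (580, others 393–451), Acad11 (114, others 79.1–91.7), Aldh1b1 (24.1, others 16.9–19.5) and Ppargc1b (24.9, others 17.3–19.9). Acat1 in that heart was thus at the mean of the WT hearts, 825 CPM, and its log2 fold change was -0.52 with all hearts and -0.66 without KO replicate 3.

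Bckdk was far from the others in WT replicate 3 (91.5 CPM, other WT hearts 79.5–84.0 CPM) and in KO replicate 6 (87.5 CPM, other KO hearts 69.5–75.4 CPM). Sdhaf4 was highest in KO replicate 1 at 2.73 CPM, where the other KO hearts had 2.25–2.42 CPM.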

How the results depend on the processing

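The 9 genes kept their direction in 252 of 252 values under 28 alternatives each, and 250 had an adjusted p under 0.05. The other 2 were Acad8 and Hibch with libraries scaled to the cardiomyocyte markers, a setting in which 7 of the 9 genes were lower and 2597 rows were lower and 5004 higher, against 4376 and 4391. Leaving out any 1 heart, the 9 genes were lower and 2 passed both thresholds in every fit, while 8268 to 9003 rows were called in all. The log2 fold change of Ivd then ranged from -1.79 to -1.59 and that of Acad8 from -0.29 to -0.20. The regulators lower in KO numbered 0 to 1 over these fits and 1 with the length trend removed. Neighbours in the KO order of FPKM that overlapped numbered 4, and 2 to 4 with a library left out (2 without KO replicate 3), and 7 with the table's lengths.

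With a replicate block in the model 9 genes were lower, 2 passed both thresholds and 8233 rows were called. Hearts of the same number correlated by -0.16 to 0.02 in their deviations from the group means. That gave no sign of pairing by number but cannot exclude a weak one. Among the neighbouring genes the calls of Btd and Bckdk were lost under 20 and 10 of 28 alternatives, and that of Dld under 1 (cardiomyocyte scaling, log2 fold change -0.15, edgeR adjusted p = 0.0724). Acadl, Esrrg and Ppargc1b, not called with all hearts and TMM, were called under 2 alternatives each. Depth limits none of the 9 genes, whose counts were at least 943, and intervals from counting error alone would leave out the spread between hearts.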

Other observations

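Aldh6a1 belongs to the mitochondrial aldehyde dehydrogenases, and 6 others were tested with it. Of these, 4 were lower in KO and 1 higher, against 25.5% and 25.6% of all rows tested, with a median log2 fold change of -0.64. Aldh4a1, of proline breakdown, fell by 1.29 on the log2 scale, with 71.2 ± 3.87 CPM in WT and 29.1 ± 4.11 CPM in KO (SD, n = 6 each), close to Aldh6a1 (-1.36). Aldh2, which clears acetaldehyde, had -1.02. Aldh18a1, which works in the other direction, in proline synthesis, rose to 16.1 ± 1.23 CPM in KO against 6.32 ± 1.73 CPM in WT (SD, n = 6 each; log2 fold change 1.35, edgeR adjusted p = 3.85e-07), with every KO heart above every WT heart. Aldh1b1 was not called (0.05).

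Mccc1 carries biotin, as do other carboxylases. Of 4 biotin genes tested 3 were lower, against 25.5% of all rows tested, with a median of -0.47. The call of Btd was lost under 20 of 28 alternatives, which left 2 of the 4 lower. Acacb, the mitochondrial acetyl-CoA carboxylase, had -0.79 and Pcx, pyruvate carboxylase, whose span overlaps Lrfn4, had -0.77, against -0.88 for Mccc1. Hlcs, the ligase that attaches biotin to these enzymes, was at 3.89 ± 0.533 CPM in WT and 3.57 ± 0.657 CPM in KO (SD, n = 6 in each group) and was not called. Btd, which recovers biotin, had -0.17 (edgeR adjusted p = 0.0497), and a row that overlaps it held 99.4% as many counts.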
